A study of Homo sapiens with 9 samples.

Results

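The replication-dependent histone genes are the multicopy genes that supply H1, H2A, H2B, H3 and H4 to chromatin while DNA is being copied. They were taken here as the protein-coding genes whose GENCODE symbol is H1-1 to H1-6 or begins with H2AC, H2BC, H3C or H4C, matched by Ensembl identifier to the rows of the deposited table. The annotation holds 70 such genes. The table has 58336 rows and 66 of them belong to these genes, because the identifiers of H2AC18, H2AC19, H3C2 and H3C3 matched no row. Of the 66, 54 had a mean normalized count of at least 10 over the groups and were compared, among 17149 genes compared in all. The 70 genes comprise 6 H1, 17 H2A, 19 H2B, 13 H3 and 15 H4 genes. By position, 55 lie in the large cluster at 6p22, 11 in the smaller cluster at 1q21, and 4 elsewhere (H2AC25 and H2BC26 on the distal part of the same arm as 1q21, H4C16 on chromosome 12 and H2BC12L on chromosome 21).

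The measurements are PRO-seq values, that is, nascent RNA from permeabilized cells in which engaged RNA polymerases were allowed to run on with labelled nucleotides. All groups are MEL624 cells, a human melanoma line grown in standard medium. The control group is wild type with a random sgRNA, and the other 2 groups are 2 PCIF1 knockout clones, called clone 1 and clone 2, each of which is a single clonal line. Each group had 3 biological replicates, 9 libraries in total, but the table analysed here holds 1 mean per group, so no replicate error and no test can be given for any value that follows.

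Replication-dependent histone genes are short, mostly lack introns, and are transcribed together in S phase under the coactivator NPAT at a nuclear structure called the histone locus body. Their transcripts are not polyadenylated: they end just after a conserved stem-loop, which is bound by SLBP and cut with the help of the U7 snRNP. PCIF1, the enzyme knocked out here, methylates adenosine when it is the first transcribed base next to the mRNA cap. The PCIF1 gene itself had 74.4 normalized counts per kb in the control, 83.7 in clone 1 and 74.3 in clone 2. A guide-induced lesion need not alter polymerase signal over its gene, so PRO-seq signal is no test of the genotype. Of 10 melanocyte and melanoma markers, 4 passed the count minimum (MITF, PMEL, PAX3 and PRAME), whereas the pigment genes MLANA, TYRP1 and DCT had mean counts of 0.34, 3.33 and 0.38 in the control. None of 7 blood and endothelial markers passed, whereas 3 of 7 fibroblast markers (COL1A1, PDGFRB and FAP) and 2 of 6 epithelial markers (KRT8 and KRT18) did. KRT18 had 842 normalized counts in the control, 713 in clone 1 and 663 in clone 2, and FAP had 1.4, 27.6 and 9.87. Whether any of this bears on the histone values was not tested.

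The stem-loop that defines this gene class was located in the genome sequence (hg38) downstream of each coding sequence. A pattern of 16 bases (GG, any 3 bases, TT, any base, T, any base, A, any 3 bases, CC) was found within 150 bases after the stop codon in 69 of 70 genes, between 22 and 67 bases beyond it. H2BC12L was the exception. All 6 arm positions were complementary in DNA letters in 67 of the 69, a count that leaves out G-U pairs of RNA. Representative sites of 26 bases are printed because they separate H4 genes from the rest. Capitals mark the stem-loop.
H1-1: ccaacGGCTCTTTTAAGAGCCaccta
H1-2: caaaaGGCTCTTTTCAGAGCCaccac
H2AC12: acaaaGGCTCTTTTCAGAGCCattct
H2AC16: acaacGGCTCTTTTCAGAGCCaccta
H2BC14: ccaaaGGCTCTTTTCAGAGCCgtcca
H3C1: gcaaaGGCTCTTTTCAGAGCCaccac
H4C4: ccaacGGCCCTTTTCAGGGCCaccta
H2AC11: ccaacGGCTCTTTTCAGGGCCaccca
H2AC15: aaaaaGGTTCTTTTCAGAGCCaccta
All 15 H4 genes had the left arm GGCCCT, and none of the 54 matching genes of other types did. Of those 54, 53 had GGCTCT. H2AC15 had GGTTCT. In H2AC15 and in H2AC11, which carries an H4-like right arm, 5 of 6 positions were complementary. The remaining position set T opposite G in both, which could pair as G-U in RNA.

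The promoters also differ by histone type. In RefSeq promoters (GRCh38.p14) of 250 bases before to 50 after the start, which were found for 64 of the 70 genes, the letters TATAA on either strand occurred in 59 of 64, or 92.2%, against 21.1% of all 27305 promoters of that length. The letters CCAAT occurred in all 6 H1, 16 H2A, 18 H2B and 11 H3 promoters and in 3 of 13 H4 promoters, against 35.7% of all promoters. The octamer ATTTGCAT was found in 11 of 16 H2A and 14 of 18 H2B promoters, in 1 H3 promoter and in no H1 or H4 promoter, against 1.8% of all promoters. AAACACA, the letters of the H1 box, was found in all 6 H1 promoters, in 2 of 11 H3 promoters (H3C14 and H3C15), in 1 of 16 H2A promoters (H2AC20) and in no H2B or H4 promoter, against 5.76% of all promoters. TATAA and CCAAT are short and can overlap other motifs, and a match is not a known binding site. The 230 bases before the annotated starts of H1-1, H1-4, H3C1 and H4C4 are given because H1-1 is the H1 gene with the lowest ratios below, H1-4 is the H1 gene with the highest, and H3C1 and H4C4 lead their types in level. Each is written in the direction of its gene, and capitals mark any of the 4 motifs on either strand.
H1-1, chr6:26017788-26018017, minus strand: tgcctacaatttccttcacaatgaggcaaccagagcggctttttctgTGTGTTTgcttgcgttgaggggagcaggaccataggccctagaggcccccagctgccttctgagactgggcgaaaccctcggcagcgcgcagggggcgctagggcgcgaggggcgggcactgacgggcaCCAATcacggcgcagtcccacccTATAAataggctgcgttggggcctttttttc
H1-4, chr6:26156099-26156328, plus strand: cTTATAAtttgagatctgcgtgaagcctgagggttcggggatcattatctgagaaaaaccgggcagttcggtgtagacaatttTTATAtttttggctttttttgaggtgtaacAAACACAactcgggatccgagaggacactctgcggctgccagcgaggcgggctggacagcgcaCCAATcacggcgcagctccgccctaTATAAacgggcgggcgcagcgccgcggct
H3C1, chr6:26020221-26020450, plus strand: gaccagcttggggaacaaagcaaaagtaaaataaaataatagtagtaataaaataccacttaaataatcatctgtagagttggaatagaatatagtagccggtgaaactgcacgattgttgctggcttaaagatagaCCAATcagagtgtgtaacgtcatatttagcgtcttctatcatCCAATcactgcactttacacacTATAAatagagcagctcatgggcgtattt
H4C4, chr6:26189113-26189342, minus strand: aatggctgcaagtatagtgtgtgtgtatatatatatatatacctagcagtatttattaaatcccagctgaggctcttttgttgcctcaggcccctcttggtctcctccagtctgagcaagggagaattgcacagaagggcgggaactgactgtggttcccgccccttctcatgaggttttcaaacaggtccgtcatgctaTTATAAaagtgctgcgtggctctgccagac
In H1-1 the H1 box is read on the opposite strand and lies farther from the start than in H1-4, whereas CCAAT and TATAA lie close to the start in both. The H4C4 sequence has TATAA and no CCAAT.

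By normalized counts per kb, histone genes were among the highest genes of the table. The median over the 54 compared genes was 1797 normalized counts per kb, averaged over groups, against 30.3 for all 17149 genes. A level of at least 1000 per kb was reached by 33 of the 54, or 61.1%, and by 161 of all genes, or 0.939%. These levels were not set against those of other genes of like length. Summed over the 66 genes, the normalized counts were 2.17% of the table's total in the control, 2.02% in clone 1 and 1.98% in clone 2. In bulk samples, fewer cells in S phase and less transcription per cell cannot be told apart. Levels per kb also depend on the length used for each gene, because 30 of the 66 gene models have exactly the coding length whereas 26 extend more than 200 bases beyond it. H2BC15, for example, was counted over 5477 bases with a coding sequence of 381.

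**Figure D1:**
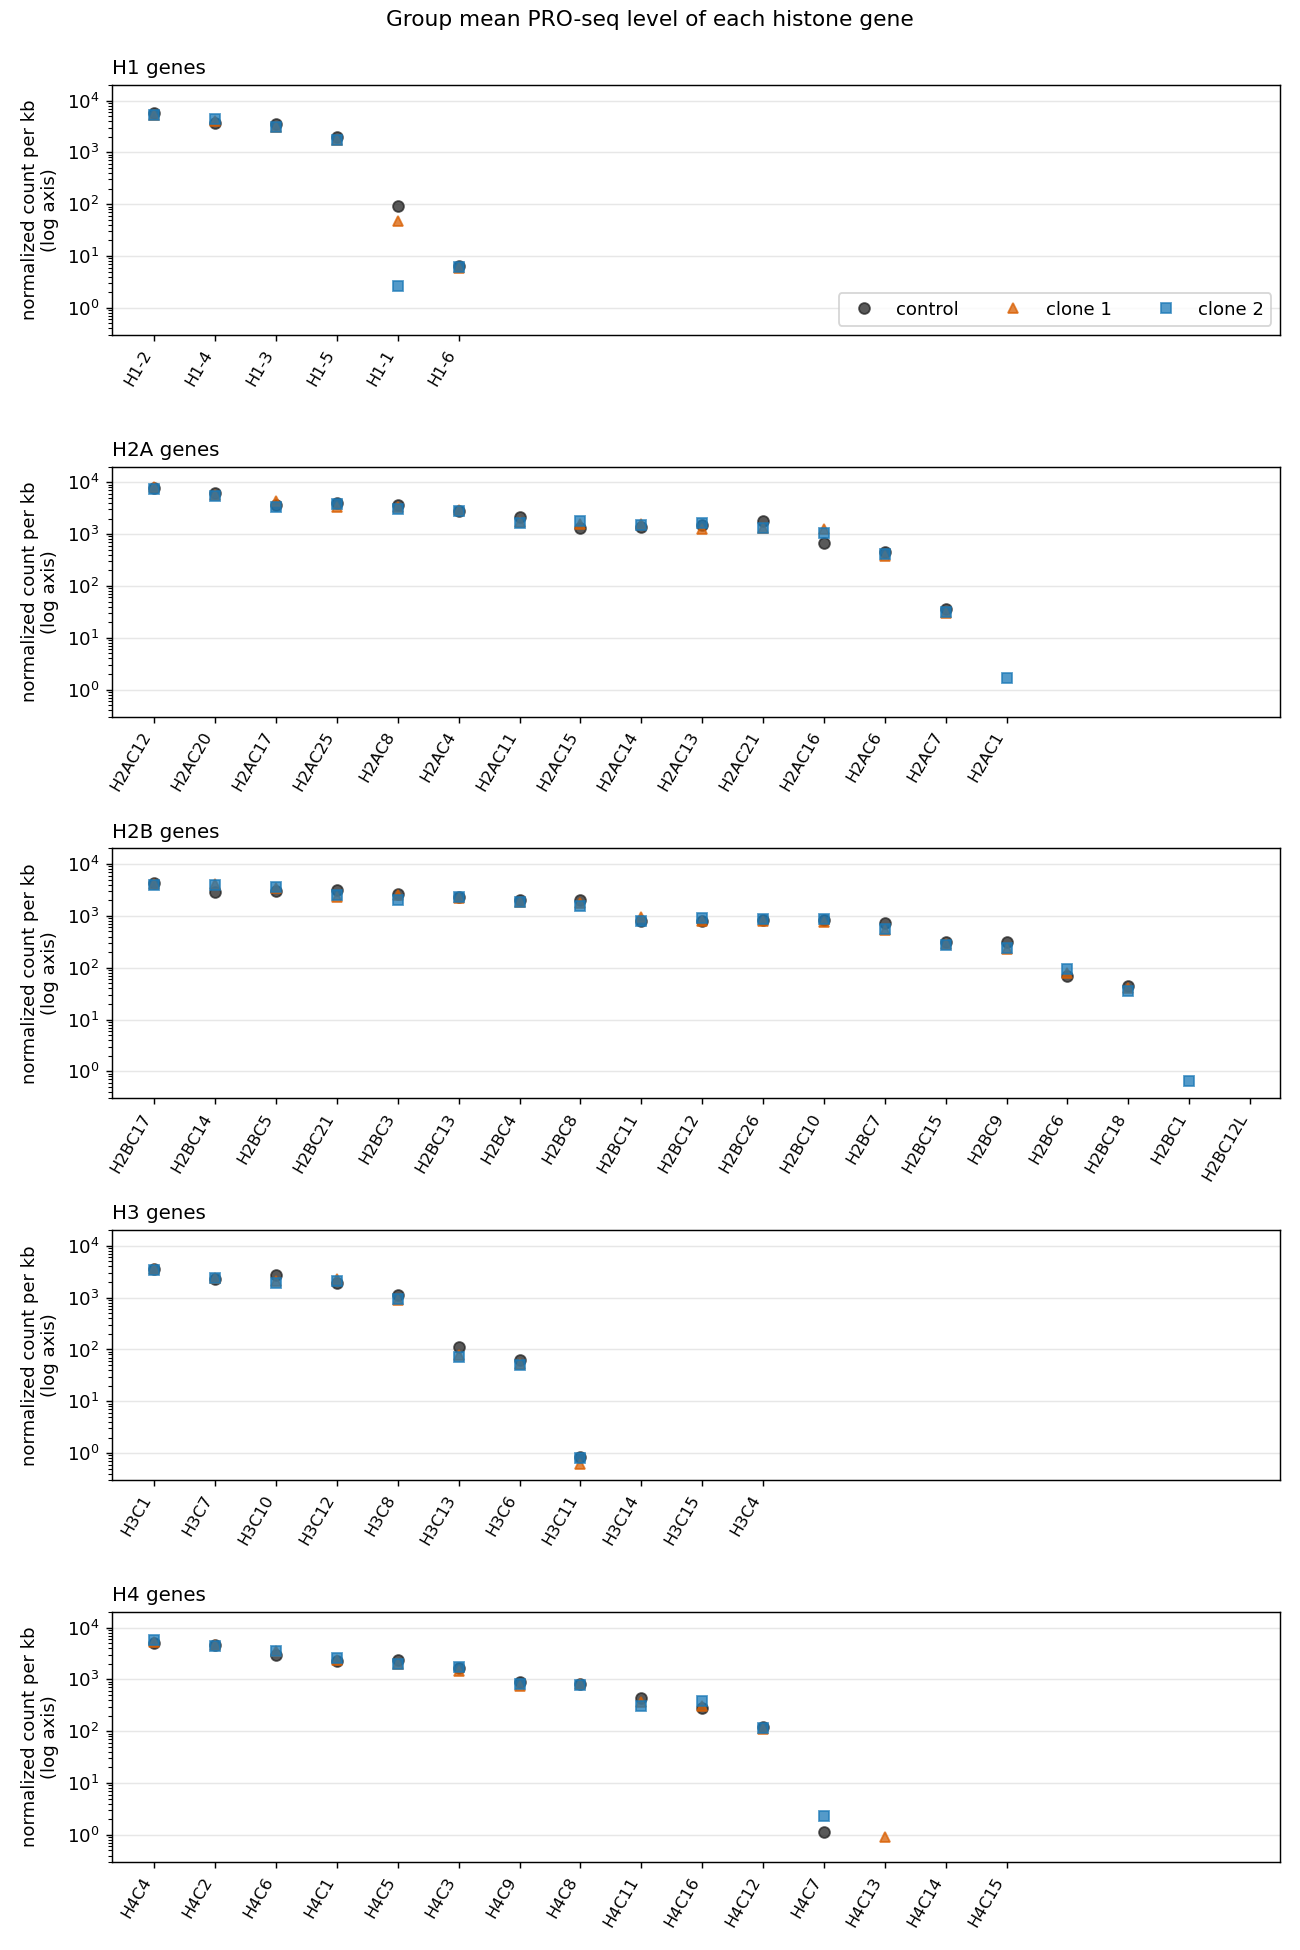
Deposited group means per kb (log axis) for every histone gene with a row, ordered by mean level within each type, for the control (circles), clone 1 (triangles) and clone 2 (squares). Values of 0 are not drawn. The groups lie close together for most genes that are above 100 per kb, and H1-1 has 3 separate values, from 92.4 in the control to 2.63 in clone 2.

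Linker histone H1 binds the nucleosome at the entry and exit of DNA, and each of its 6 genes encodes its own protein. H1-2 had 5794 normalized counts per kb in the control, 5352 in clone 1 and 5222 in clone 2. H1-4 had 3682, 3974 and 4308 in the same order, and is the H1 gene that was higher in both clones. H1-3 had 3602, 3132 and 3049, and H1-5 had 1999, 1727 and 1758. H1-2, H1-3 and H1-5 thus had their highest value in the control. H1-2 supplied 38.2% of the H1 signal per kb in the control, 37.6% in clone 1 and 36.4% in clone 2, whereas the share of H1-4 was 24.3%, 27.9% and 30.0%. The testis-specific gene H1-6 had 6.53, 5.98 and 6.18 per kb and was under the count minimum.

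H2A pairs with H2B in the nucleosome core. H2AC12 was the histone gene with the highest level of all, at 7684 per kb in the control, 8175 in clone 1 and 7471 in clone 2. H2AC20, in the 1q21 cluster, followed with 6250.2, 5649 and 5329. H2AC25 had 4010.3, 3392 and 3897, and H2AC17 had 3707, 4350.1 and 3350.2. For H2AC12 and H2AC17 the control lay between the clones, and for H2AC20 and H2AC25 both clones were below it. Among all 14 compared H2A genes, mean levels ran from 32.5 (H2AC7) to 7777 per kb (H2AC12), and 11 reached 1000. The testis-specific gene H2AC1 was listed at 0 in the control and clone 1 and at 1.68 in clone 2.

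Among H2B genes, H2BC17 had 4244 per kb in the control, 4073 in clone 1 and 3889 in clone 2. H2BC14 had 2897, 4094 and 3972, and H2BC5 had 3027, 3400.2 and 3569.6, so these were higher in both clones. H2BC21, in the 1q21 cluster, had 3141, 2272 and 2548. The 17 compared H2B genes ran from 40.1 per kb (H2BC18) to 4069 (H2BC17), and 8 reached 1000. The testis-specific H2BC1 had 0.64 in clone 2 and 0 in the other groups.

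H3 and H4 form the central tetramer of the nucleosome. The 6p22 H3 genes in the annotation, 10 in number, encode the same protein, and the 3 at 1q21 encode another. H3C1 had 3540.2 per kb in the control, 3587 in clone 1 and 3387 in clone 2. H3C10 had 2699, 2104 and 1955, H3C7 had 2308, 2342 and 2355, and H3C12 had 1885, 2308 and 2077. Of these 4, H3C10 was below the control in both clones, H3C7 and H3C12 were above it in both, and H3C1 had the control between the clones. H4C4 led the H4 genes with 5129, 5345 and 5649 per kb. H4C2 had 4522, 4577 and 4392, H4C6 had 3020.2, 3562 and 3582, and H4C1 had 2247, 2349 and 2569.7. All but 1 of the H4 genes encode the same protein, and that exception, H4C7, was near 0 in every group. H4C4, H4C6 and H4C1 were highest in clone 2, whereas H4C2 was lowest there.

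The 6p22 cluster held nearly all of the H3 and H4 signal that was assigned to these genes. In the control, its genes held 99.1% of the H3 signal per kb, 98.7% of the H4 signal, 85.1% of the H2B signal and 67.8% of the H2A signal. For H2A, 21.5% came from 1q21 and 10.7% from H2AC25. In the clones the 1q21 share of H2A was 18.9% and 18.7%, and that of H2B was 8.65% in clone 1 and 9.8% in clone 2 against 11.8% in the control. As counts rather than per kb, 6p22 held 65.3% of the H2B signal in the control, 70.6% in clone 1 and 67.6% in clone 2, and 1q21 held 26.9%, 21.5% and 23.7%, because the H2BC21 model is 2194 bases long. The 1q21 share of H2B was lower in both clones than in the control on either scale. These shares count only genes with reads assigned to them, and several 1q21 genes are exact copies, as described next. At 1q21, H3C14 and H3C15 have the same coding sequence, as do H4C14 and H4C15, and these genes were listed at 0 in all groups. The H3 and H4 shares therefore cannot measure how much 1q21 supplied.

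Near-identical copies limit what can be read for single genes. For each coding sequence, the share of 42-base windows found once in the genome was computed, 42 bases being the read length. All windows were unique in 27 of the 70 genes, fewer than 4 in 5 in 22, and none in 9. Of the 7 genes with a row and no unique window, 5 were listed at 0 in all groups (H3C14, H3C15, H4C14, H4C15 and H2BC12L) and 2 were compared (H4C11 and H4C12). The first 42 coding bases of 5 genes show the point, with H3C1 and H4C4 as unique counterparts.
H4C11: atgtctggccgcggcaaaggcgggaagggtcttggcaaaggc
H4C12: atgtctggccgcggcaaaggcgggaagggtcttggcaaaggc
H4C14: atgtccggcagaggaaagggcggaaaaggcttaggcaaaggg
H4C4: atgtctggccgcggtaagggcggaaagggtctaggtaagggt
H3C1: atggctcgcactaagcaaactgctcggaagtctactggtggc
The H4C11 and H4C12 windows are the same letters, found at 2 places, as is the H4C14 window, whereas those of H4C4 and H3C1 occur once. A listed 0 at such a gene does not show that the gene was silent. H3C4 was also at 0 although all of its windows are unique. It shares exons on the same strand with the read-through gene ENSG00000282988, as does H2AC7, and that gene had 1517 normalized counts in the control, 1275 in clone 1 and 1165 in clone 2. How multiply mapped reads and reads in overlapping genes were treated is not given in the sources used here.

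**Figure D2:**
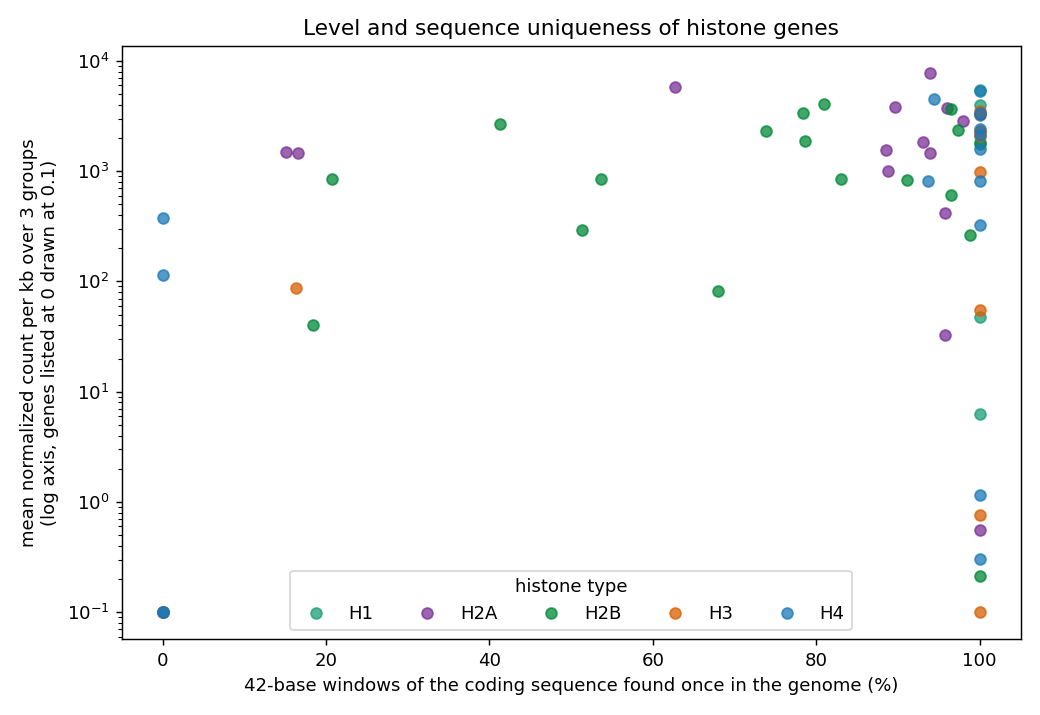
Mean normalized count per kb over the 3 groups (log axis) against the share of 42-base coding windows that occur once in the genome, 1 point per histone gene with a row. The genes at 0 with no unique window sit at the lower left, and 1 gene with fully unique windows (H3C4) is also drawn at the 0 level.

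Between the knockout clones and the control, most histone genes differed little. The median log2 ratio over the 54 genes was -0.12 in clone 1 and -0.097 in clone 2, against -0.0048 and -0.0039 over all genes, and those for the mean of the clones were -0.096 against 0.00031. In each clone 35 of 54 genes were below the control, or 64.8%, beside 50.7% of all genes in clone 1 and 50.4% in clone 2. Both comparisons use the same control group, so they are not independent. Among genes with mean counts from 1000, where 30 of the 54 histone genes fall, 19 of 30 histone genes in clone 1 and 23 of 30 in clone 2 were below the control, or 63.3% and 76.7%, with medians of -0.094 and -0.12. The 439 other genes of that count range had 50.3% and 55.8% below and medians of -0.0022 and -0.044. In the range of 200 to 1000, 9 of 17 histone genes were below in clone 1 and 5 of 17 in clone 2. The 4800 other genes of that range had 49.4% and 49.7% below. All 3 histone genes with counts of 50 to 200 and all 4 with counts of 10 to 50 were below in both clones. Other genes had 51.3% and 48.1% below at 50 to 200, and 51.2% and 53.5% at 10 to 50. At least 1.5-fold lower were 1 gene in clone 1, where 4.94% of all genes were, and 2 genes in clone 2, where 7.23% were. At least 1.5-fold higher was 1 gene in each, beside 6.93% and 9.76% of all genes. Shares of 1.85% to 3.7% of the histone genes lie under these backgrounds, which are not matched for count. Of all genes compared, 5232 have mean counts of 10 to 50, where the log2 ratio of clone 2 to clone 1 had an SD of 0.60. Only 4 histone genes fall in that range. From 1000, where 30 of them fall, the SD was 0.22. At least 2-fold lower were 0 genes in clone 1, beside 1.32% of all genes, and 1 gene, H1-1, in clone 2, beside 1.9%. For the mean of the clones, 1 gene was at least 1.5-fold lower and 1 higher, beside 4.64% and 7.7% of all genes. Clone 2 was at least 1.5-fold below clone 1 at 1 gene, again H1-1, beside 3.8% of all genes, and at least 1.5-fold above it at 0 genes, beside 4.37%.

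Since no replicate spread is available, the central 95% of the clone 2 to clone 1 log2 ratio over genes of like count was used as a yardstick. It ran from -0.38 to 0.58 for genes with mean counts from 1000, from -0.35 to 0.53 for counts of 200 to 1000, from -0.50 to 0.63 for 50 to 200 and from -1.01 to 1.05 for 10 to 50. It mixes biological and technical differences of the 2 lines and cannot stand in for replicate error. Its high limits lie further from 0 than its low limits. A ratio must therefore be larger in size to lie outside on the high side than on the low side. Outside it lay 5 genes in clone 1 (H2AC16, H2AC21, H2BC7, H2BC9 and H2BC21) and 8 in clone 2 (H1-1, H2AC11, H2AC16, H2AC21, H2BC3, H2BC8, H2BC9 and H3C10). H2AC16, H2AC21 and H2BC9 are in both sets. H2AC16 lay on the high side and the others on the low side. Of the 54 genes these are 5 and 8. Of all 17149 compared genes, 8.61% in clone 1 and 13.9% in clone 2 lay outside. The histone numbers are near this background, which is not matched for count. At counts of 200 to 1000, 4 of 17 histone genes lay outside in each clone, beside 8.48% and 16.6% of other genes. From 1000, 1 of 30 did in clone 1 and 3 of 30 in clone 2, beside 7.74% and 14.4%. At 10 to 50, 0 of 4 and 1 of 4 did, beside 8.13% and 10.7%.

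**Figure D3:**
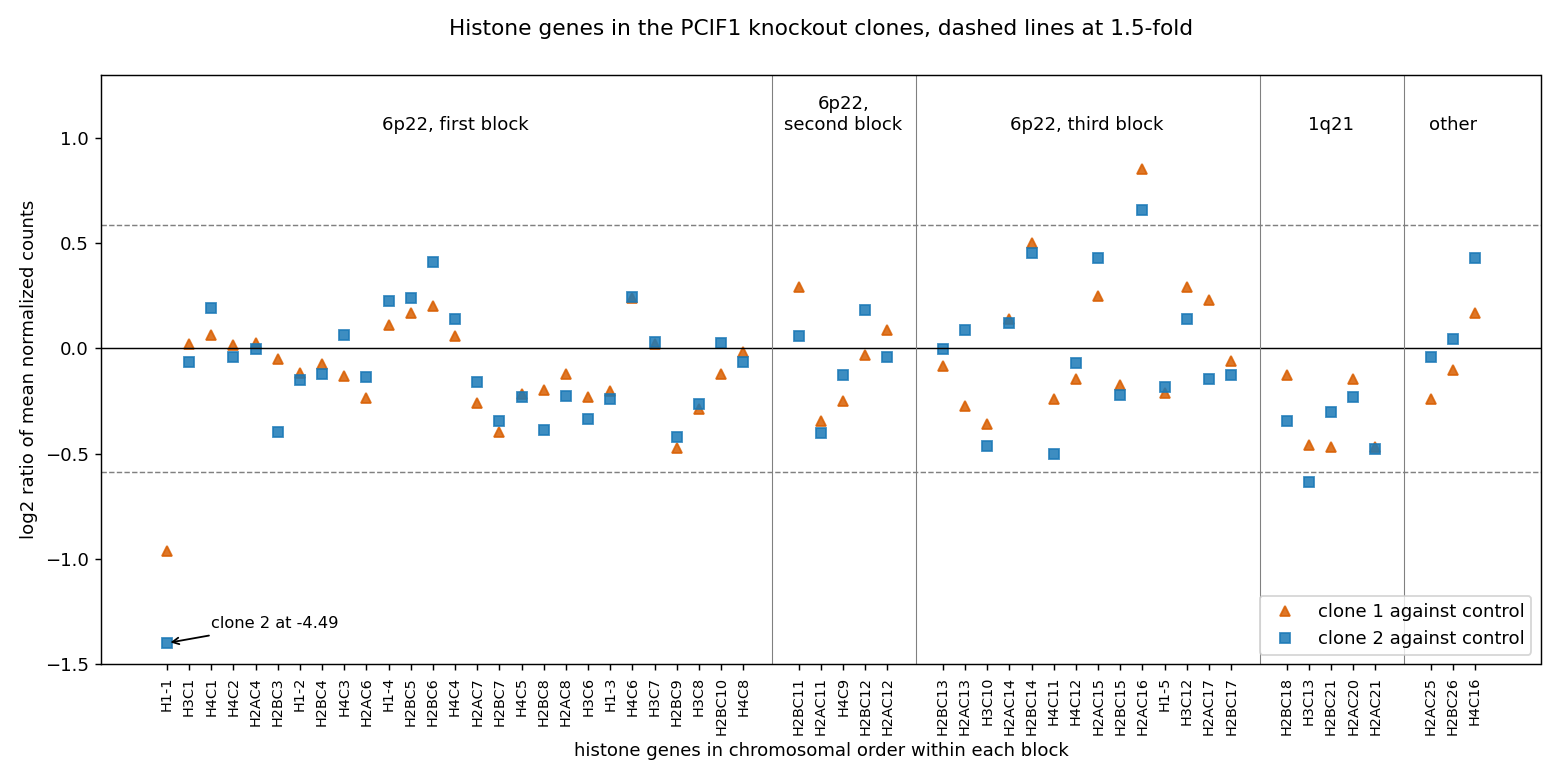
Log2 ratio of each compared histone gene in clone 1 (triangles) and clone 2 (squares) against the control, in chromosomal order within 3 blocks of 6p22, in 1q21 and elsewhere. Dashed lines mark 1.5-fold, and H1-1 in clone 2 is drawn at the lower edge with its value. H2AC16 lies above the upper line in both clones, and all 5 genes of 1q21 lie below 0 in both.

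H1-1 (ENSG00000124610, chr6:26017032-26017787, minus strand) had the lowest ratio in every comparison. It had 92.4 normalized counts per kb in the control, 46.6 in clone 1 and 2.63 in clone 2, with log2 ratios of -0.96 and -4.49. The control was highest and clone 2 lowest. The mean count over the groups was 30.6, and the clone 2 mean corresponds to 1.7 normalized counts, so the clone 2 ratio depends on the pseudocount of 1 (it was -3.27 with a pseudocount of 5). H1-1 supplied 0.609% of the H1 signal per kb in the control, and the other compared H1 genes had log2 ratios from -0.21 to 0.11 in clone 1 and from -0.24 to 0.23 in clone 2.

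H2AC16 (ENSG00000276903, chr6:27865317-27865798, plus strand) was the gene furthest above the control, with 679 per kb in the control, 1230.1 in clone 1 and 1074 in clone 2. Its log2 ratios were 0.85 and 0.66, and both clones lie above the control by more than they differ from each other. H2AC16 encodes the same H2A protein as H2AC11, H2AC13, H2AC15 and H2AC17. H2AC15 had 1322, 1570.1 and 1782, with ratios of 0.25 and 0.43, and H2AC11 had 2152, 1695 and 1628, with ratios of -0.34 and -0.40. H2AC13 (1520.1, 1255 and 1614) and H2AC17 lay on both sides of the control, and only 16.6% of the H2AC13 windows are unique. Summed over these 5 genes, the level per kb was 9379.8 in the control, 10100.4 in clone 1 and 9448 in clone 2. Single genes for this protein therefore differed in opposite directions, and their sum per kb lay within a log2 ratio of 0.11 of the control in both clones. On the count scale, where the 2250-base model of H2AC11 weighs most, the summed log2 ratios were -0.11 and -0.18.

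H2BC14 (ENSG00000273703, chr6:27815022-27815489, plus strand) followed H2AC16 on the high side, with log2 ratios of 0.50 and 0.46. H4C6 had ratios of 0.24 and 0.25. H2BC6, whose model of 2585 bases overlaps a transcript on the other strand, had 69.9, 80.6 and 93.0 per kb and ratios of 0.20 and 0.41. H4C16, the isolated H4 gene on chromosome 12, had 279, 314 and 376 and ratios of 0.17 and 0.43. H3C12, which overlaps H2AC17 on the same strand, had 0.29 and 0.14, and H2BC11 had 779.8, 954 and 813 per kb and ratios of 0.29 and 0.06. None of these apart from H2AC16 lay outside the yardstick.

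On the low side, H2BC9 had 318, 229 and 237 per kb, with log2 ratios of -0.47 and -0.42. H3C10 had ratios of -0.36 and -0.47, and H2BC7 had 716, 544 and 563 per kb and ratios of -0.40 and -0.35. In each of these 3 genes the clones lie close together and below the control. H2BC8 had 2014, 1756 and 1539 with -0.20 and -0.39, and H2BC3 had 2619.6, 2529 and 1988 with -0.05 and -0.40, so at H2BC3 clone 1 was near the control and clone 2 below both. H4C11 had 438, 371 and 309 with -0.24 and -0.50, but none of its coding windows is unique.

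Clone 2 against clone 1 gives a comparison that does not involve the control. Its median over the 54 genes was -0.014, and 29 of the 54 were below 0, or 53.7%, beside 49.8% of all genes. Apart from H1-1, the lowest ratios were at H2AC17 (-0.38), H2BC3, H4C11, H2BC11 (-0.23) and H2BC18, and the highest were at H2AC13 (0.36), H4C16, H2BC12 (0.21), H2BC6, H2AC25 (0.20) and H4C3. H2BC12 had 813, 797 and 925 per kb and H4C3 had 1625, 1482 and 1699.6, with the control between the clones in both. Of the H2BC12 windows, 20.8% are unique.

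By histone type, the medians of the log2 ratio in clone 1 and clone 2 were -0.20 and -0.19 for 5 H1 genes, -0.13 and -0.089 for 14 H2A genes, -0.085 and -0.12 for 17 H2B genes, -0.23 and -0.26 for 7 H3 genes, and -0.018 and -0.042 for 11 H4 genes. The H4 medians were thus nearest to 0, and the sign of the H4 median in each clone depended on the setting. In clone 1, 4 of 5 H1, 8 of 14 H2A, 13 of 17 H2B, 4 of 7 H3 and 6 of 11 H4 genes were below the control. The corresponding numbers in clone 2 were 4, 10, 10, 5 and 6. Of all genes, 50.7% in clone 1 and 50.4% in clone 2 were below the control. Summed per kb, H4 had 21452 in the control, 21698 in clone 1 and 22307 in clone 2, whereas H3 had 11714, 11381 and 10819, so on this scale the H3 and H4 sums lay on different sides of the control. The H1 sums were 15176.5, 14237.5 and 14346. For H2A they were 37431, 36756 and 35303, and for H2B 27039.9, 26726 and 26360.4. None of these sums differed by more than a log2 ratio of 0.12 per kb from the control. Summed as counts, where long gene models weigh more, all 5 types were below the control in both clones, with log2 ratios in clone 1 and clone 2 of -0.085 and -0.070 for H1, -0.11 and -0.14 for H2A, -0.14 and -0.12 for H2B, -0.13 and -0.20 for H3, and -0.045 and -0.0083 for H4. The side on which the H4 sum lay thus depended on the scale.

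By cluster, the 5 compared genes of 1q21 (chr1:149782689-149887965 for the genes with a row) were below the control in both clones. Their median was -0.46 in clone 1 and -0.35 in clone 2. The 46 genes at 6p22 had medians of -0.081 and -0.068, and the 3 others -0.10 and 0.044. H2AC21 had 1795, 1296 and 1288 per kb, with log2 ratios of -0.47 and -0.48. H2BC21 had ratios of -0.47 and -0.30, H2AC20 -0.15 and -0.23, and H2BC18 (44.5, 40.8 and 34.9 per kb) -0.13 and -0.35. H3C13, for which 16.3% of windows are unique, had 110.1, 79.6 and 70.1 per kb and ratios of -0.46 and -0.63, and is the second gene at least 1.5-fold lower in clone 2. H3C13, H2AC20, H2BC21 and H2BC18 all have fewer than 4 in 5 windows unique, and H2AC21, the remaining gene, has 94.0%. Summed per kb, the 1q21 genes had 11340.5, 9337 and 9270.3, or log2 ratios of -0.28 and -0.29, whereas the 6p22 sums differed by 0.0094 and -0.024. Genes other than these within 1000000 bases of the 1q21 histone genes were also below the control more often than above. Of 23 such neighbours compared, 15 were below in clone 1 and 17 in clone 2, beside 50.7% and 50.4% of all genes. The medians of the log2 ratio of these neighbours were -0.13 and -0.21. All of them except PDE4DIP lie at higher coordinates than the histone genes, so they describe mainly that side. One of the neighbours is BOLA1, which overlaps H2AC21 on the other strand and had 488 normalized counts in the control, 195 in clone 1 and 181 in clone 2. Whether reads of BOLA1 enter the H2AC21 value was not tested, because the strand setting of the counting is not known. At 6p22, 12 neighbours between the histone genes had medians of -0.043 and -0.042. The lowest were ZNF322 (23.8, 13.9 and 19.7 normalized counts), BTN3A3 (48.1, 40.7 and 37.1) and HFE (71.6, 68.3 and 62.5), and the highest were ZNF184 (83.1, 121.6 and 127.1), ZNF391 (65.8, 104.7 and 68.8) and ABT1 (188, 207 and 226).

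Within 6p22 the genes form 3 blocks. The first block (chr6:25723397-26285638, 27 compared) had a median of -0.11 in clone 1 and one of -0.12 in clone 2. The second (chr6:27125897-27147562, 5 compared) had -0.029 and -0.041. The third (chr6:27807479-27893891, 14 compared) had -0.072 and -0.036 and holds H2AC16, H2BC14, H2AC15 and H4C11, so its single genes ranged from -0.36 to 0.85 in clone 1 and from -0.50 to 0.66 in clone 2.

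The ratios also differed with the length of the gene model. For 25 compared genes counted over the coding length alone, the median was -0.029 in clone 1 and -0.064 in clone 2. For 22 genes whose model extends over 200 bases beyond it, the medians were -0.21 and -0.18. Of these, 17 of 22 in clone 1 and 16 of 22 in clone 2 were below the control, against 13 and 15 of 25. The shares of all genes below the control were 50.7% in clone 1 and 50.4% in clone 2. For 7 genes with a shorter extension the medians were -0.12 and -0.0015. Within the 6p22 cluster alone, the medians were 0.020 and -0.021 for 22 coding-length models and -0.22 and -0.22 for 17 extended models. The few 1q21 genes had the opposite order, with -0.46 and -0.48 for 3 coding-length models and -0.30 and -0.32 for 2 extended ones. Within H4 they were 0.062 and 0.17 for 4 coding-length models and -0.12 and -0.095 for 4 extended ones. Summed counts of extended models were 44576 in the control, 38745 in clone 1 and 39371 in clone 2, whereas those of coding-length models were 27646, 27843 and 26746.5. Over the 54 genes, the correlation between the log2 ratio (mean of clones) and the log2 of model length over coding length was weak (Pearson r of -0.10, Spearman rho of -0.23, given as a description across genes, with all genes sharing the same 3 group means).

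**Figure D4:**
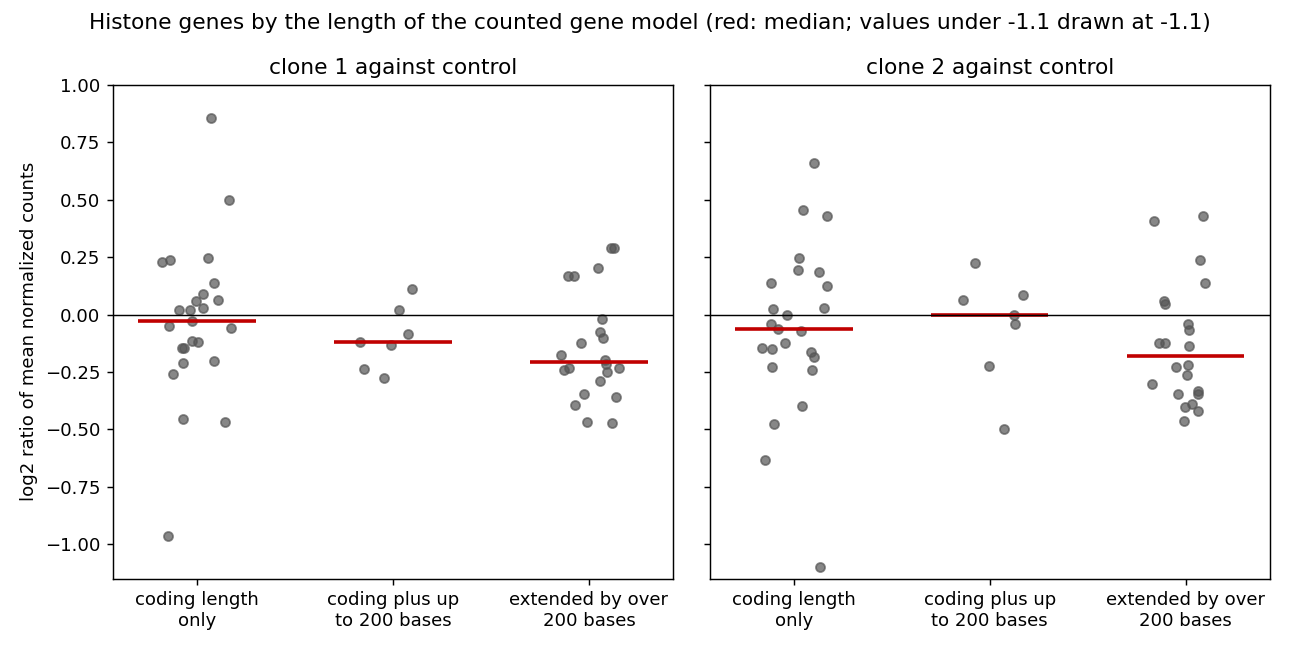
Log2 ratio of each compared histone gene against the control in clone 1 (left) and clone 2 (right), by how far the counted gene model extends beyond the coding sequence, with the median in red. Values under -1.1 (H1-1 in clone 2) are drawn at -1.1. Extended models have the lowest median in both panels, and the classes overlap.

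The base at the annotated start is of interest because PCIF1 acts on adenosine. In RefSeq, 34 of 64 histone promoters, or 53.1%, begin with A at the start site, against 44.3% of all 27305. Of the compared genes, 28 with A had a median ratio of -0.15 in clone 1 and -0.16 in clone 2, 16 with G had -0.063 and -0.053, and 6 with C had -0.14 and 0.072. Over all compared genes with a RefSeq start, the medians were 0.0071 and 0.026 for A and -0.011 and -0.0087 for G. With GENCODE starts, the same base was found for 48 of 50 genes, and medians were -0.12 and -0.13 for 34 genes with A and -0.076 and -0.064 for 15 with G. Annotated starts are not measured start sites, and the ranges for A and G overlap.

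Many H2A and H2B genes are arranged head to head and read away from a shared intergenic region. There were 12 such pairs, with 193 to 250 bases between the annotated starts, and 11 had both genes compared. The partners were on the same side of the control in 7 of 11 pairs in clone 1 and in 6 of 11 in clone 2. Both partners were below the control in 6 pairs in clone 1 and in 5 in clone 2. Since 64.8% of the compared histone genes were below in each clone, unrelated genes would also often share a side. Whether partners agree more often than that was not tested. The intergenic regions of 3 pairs are given on the plus strand because the first has both partners above the control, the next both below, and the last its partners apart. Capitals mark the same motifs on either strand.
H2AC14 and H2BC14, chr6:27814778-27815021: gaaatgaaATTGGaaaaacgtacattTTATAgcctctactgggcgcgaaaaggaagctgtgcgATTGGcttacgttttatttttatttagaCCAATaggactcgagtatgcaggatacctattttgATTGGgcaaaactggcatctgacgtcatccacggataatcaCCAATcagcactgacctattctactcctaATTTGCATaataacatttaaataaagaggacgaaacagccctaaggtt
H2BC21 and H2AC20, chr1:149886683-149886917: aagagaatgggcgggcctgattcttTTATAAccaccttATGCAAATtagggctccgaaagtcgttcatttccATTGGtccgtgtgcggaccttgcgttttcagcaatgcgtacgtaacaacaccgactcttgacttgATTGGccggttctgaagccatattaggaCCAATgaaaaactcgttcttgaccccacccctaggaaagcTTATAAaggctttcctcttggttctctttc
H2BC11 and H2AC11, chr6:27132796-27133042: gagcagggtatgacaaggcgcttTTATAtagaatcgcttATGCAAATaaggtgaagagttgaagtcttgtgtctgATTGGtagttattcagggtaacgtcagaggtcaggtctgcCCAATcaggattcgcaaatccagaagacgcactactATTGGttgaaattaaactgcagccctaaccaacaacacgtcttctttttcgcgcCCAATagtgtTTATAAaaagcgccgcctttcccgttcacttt
Each of these holds 1 octamer match. It lies near the H2BC14 start in the first and near the H2BC21 and H2BC11 starts in the others, so the octamer is on the H2B side in all 3. The first region holds 5 CCAAT matches, the second 3 and the last 4.

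H2AC14 had 1403 per kb in the control, 1545 in clone 1 and 1527 in clone 2, with log2 ratios of 0.14 and 0.12, beside 0.50 and 0.46 for its partner H2BC14. Only 15.2% of the H2AC14 windows are unique, against 96.4% for H2BC14. H2BC11 and H2AC11 differed in opposite directions in both clones (0.29 against -0.34 in clone 1, 0.06 against -0.40 in clone 2). So did H2AC15 and H2BC15, with 0.25 against -0.17 in clone 1 and 0.43 against -0.22 in clone 2. H2AC11 and H2BC15 are both extended models (2250 and 5477 bases). Listed levels within a pair could be very unequal, as at H2BC12 and H2AC12, with 813 and 7684 per kb in the control. Their models are of like length, but 20.8% of the H2BC12 windows are unique, against 93.9% for H2AC12. How this bears on the listed levels was not tested. H2BC12 and H2AC12 lay on opposite sides of the control in each clone.

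**Figure D5:**
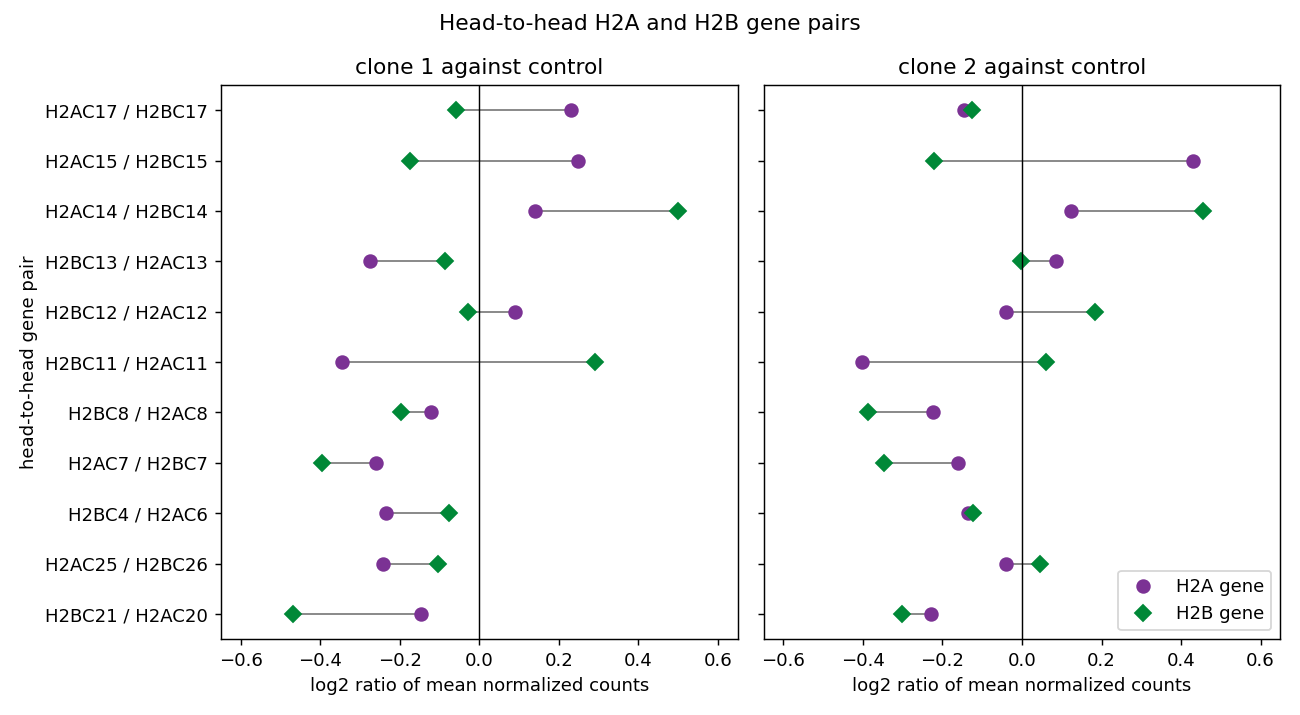
Log2 ratio against the control for the H2A gene (circle) and the H2B gene (diamond) of 11 head-to-head pairs, in clone 1 (left) and clone 2 (right), with a line joining partners. The H2AC14 and H2BC14 pair lies above 0 in both panels, and the lines of the H2BC11 and H2AC11 pair and of the H2AC15 and H2BC15 pair cross 0 in both.

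The genes that transcribe and process histone mRNA showed no common direction. Of 26 genes on this list all were compared and 0 differed by 1.5-fold in either clone. Of all genes, 4.94% in clone 1 and 7.23% in clone 2 were at least 1.5-fold lower, and 6.93% and 9.76% were higher. The median log2 ratio of the list was 0.011 in clone 1 and -0.0018 in clone 2. SLBP, the stem-loop binding protein, had 412 normalized counts in the control, 424 in clone 1 and 435 in clone 2. NPAT had 183, 185 and 209, and CASP8AP2, a component of the histone locus body, had 305, 306 and 282. The largest ratios of the list were at CCNE2 (333, 449.7 and 448), NCBP2 (273, 319.6 and 389) and NCBP1 (425, 538 and 542), which were higher in both clones, and SYMPK (692, 541 and 556), which was lower. CCNE2 encodes a cyclin of the G1 to S transition, NCBP1 and NCBP2 form the nuclear cap-binding complex, and SYMPK is a scaffold of the histone cleavage complex.

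Histone chaperones, which carry new histones to DNA, were mostly below the control. Of 21 genes, 15 were below in clone 1 and 19 in clone 2, where 50.7% and 50.4% of all genes were. None reached 1.5-fold, which with 4.94% and 7.23% of all genes at least 1.5-fold lower is near the background for a list of this size. The medians of the log2 ratio were -0.097 and -0.20. The gene with the lowest ratio was HIRA, which deposits H3.3 outside replication, at 47.0, 31.5 and 32.0 normalized counts. CHAF1B, a subunit of the replication-coupled chaperone CAF-1, had 86.8, 82.7 and 61.9, TONSL had 360.2, 315 and 295, and NAP1L4 had 249, 225 and 202. HIRA was low in both clones to a like extent, whereas CHAF1B was near the control in clone 1.

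Of 18 replication-independent histone genes 9 were compared and 0 reached 1.5-fold. Of all genes, 4.94% in clone 1 and 7.23% in clone 2 were at least 1.5-fold lower, and 6.93% and 9.76% were higher. The median log2 ratio of the 9 genes was -0.057 in clone 1 and -0.040 in clone 2. H3-3B, which encodes the replacement histone H3.3, had 3633 normalized counts in the control, 2829 in clone 1 and 2471 in clone 2. H2AZ2 had 249, 226 and 204. H2AX, the variant phosphorylated at DNA breaks, had 3885, 4425 and 4242. H3-3B and H2AZ2 were therefore below the control in both clones and H2AX above it.

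Of 25 genes of S phase and DNA synthesis, 17 were below the control in clone 1 and 15 in clone 2, beside 50.7% and 50.4% of all genes. The median log2 ratios of the 25 genes were -0.048 and -0.064. TYMS, which makes thymidylate, was the only gene of the list at least 1.5-fold lower in either clone. Of all genes, 4.94% in clone 1 and 7.23% in clone 2 were that much lower. TYMS had 757 normalized counts in the control, 499.9 in clone 1 and 455 in clone 2. MCM5 had 362, 298 and 263 and POLD1 had 164, 134 and 126, whereas MCM4, of the same helicase as MCM5, had 1084, 1558 and 1485. The medians of these S phase genes lie nearer to 0 than the histone medians of -0.12 and -0.097, a difference that was not tested.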

How the data were processed

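PRO-seq libraries of control MEL624 cells and 2 PCIF1 knockout clones (3 each) were summarised by the authors. Per the file headers, the deposited signal is the mean normalized count of a group per kb of gene length. The header has 6 names over 5 cells per row, and the cell for the gene symbol was taken as missing. Tools listed, without roles, in the submitters' processing notes are DESeq2, featureCounts, Bowtie 1.2.2 and cutadapt 1.14, and the builds are GRCh38.p12, hg38 and dm3. Which feature and strand were counted, how multiply mapped reads were treated and whether the Drosophila spike-in (40000 cells per library) set the scale is not given in the sources used here. Depth per library is unknown.

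Values were multiplied by length in kb to give mean normalized counts. Ratios are log2 after adding a pseudocount of 1, for genes whose 3 groups average 10 or more. With 1 mean per group, the moderated tests that the design would allow per library could not be run, and no p-value is given. Identifiers were matched to GENCODE release 44 on hg38 (57754 rows matched, 582 did not). Stem-loops, 42-base windows and regions between starts were read from hg38, and promoters from RefSeq (GRCh38.p14). The functions for ratios and scaling were tested on simulated data. Python 3.11.15, numpy 2.4.6, pandas 2.3.3, pysam 0.24.0 and matplotlib 3.10.9 were used.

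Values in all groups are given for the 4 genes of highest level in each histone type, the 6 highest and 6 lowest ratios of each comparison, genes outside the yardstick, the 4 genes of each list with the largest ratio in size (mean of clones) and the 3 highest and 3 lowest 6p22 neighbours. 1 gene named by this rule is not reported here. Other genes were named for their role, copy number or pairing. The members and gene lists were chosen with earlier results of these data known. Alternatives were 2 scalings, 2 pseudocounts, 2 floors, values per kb, and leaving out overlapping genes or genes with under 80% of windows unique.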

Additional observations from a re-analysis of the deposited data

Results flagged for a closer look

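Histone pseudogenes lie outside the comparisons above. Among the 7 with a mean count of at least 10, 3 ratios stood above the control by more than 1.5-fold. Others stood below it by more than 1.5-fold: H2BC20P (log2 ratios of -0.91 and -0.91), H2BC19P in clone 2 (-0.77) and H2AC9P in clone 1 (-0.77). Of all genes, 6.93% in clone 1 and 9.76% in clone 2 were at least 1.5-fold higher, and 4.94% and 7.23% lower. H3C9P, a processed pseudogene at 6p22, had 14.2 normalized counts per kb in the control, 54.2 in clone 1 and 42.4 in clone 2, with log2 ratios of 1.77 and 1.44. These correspond to 5.91, 22.6 and 17.7 normalized counts. H4C10P, also at 6p22, had 61.9, 53.1 and 101.2 per kb, with a log2 ratio of 0.68 in clone 2 and -0.21 in clone 1. Both are at low counts, the differences were not tested, and reads shared with expressed histone genes were not examined.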

How the results depend on the processing

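The 4 medians over the histone genes kept their sign under all 9 alternatives, running from -0.12 to -0.094 in clone 1, from -0.13 to -0.064 in clone 2, from -0.10 to -0.064 for the mean of the clones and from -0.029 to -0.00099 for clone 2 against clone 1. With a floor of 50, which leaves out H1-1 and H3C13, the number of genes at least 1.5-fold lower became 0 in clone 1, clone 2, the mean of the clones and clone 2 against clone 1. In clone 2 it became 1 with a pseudocount of 5 and 1 without genes of low uniqueness. With no floor, 2 genes were at least 1.5-fold higher in clone 2 (H2AC16 and H2AC1) and 2 in clone 2 against clone 1 (H2AC1 and H4C7). Of 180 medians by type under the alternatives 7 had the other sign, as did 2 of 108 by cluster and 4 of 112 for the lists; the H4 median ran from -0.057 to 0.018 in clone 1 and from -0.042 to 0.065 in clone 2. The 1q21 medians ran from -0.48 to -0.31 and from -0.48 to -0.30. Of 1648 values of named genes, 2 moved by more than the clone spread (1 SD of clone 2 against clone 1 over genes of like count), both of them H1-1 with a pseudocount of 5. The summed levels of H2A and H2B are lower without genes of low uniqueness (28258 and 14428.5 per kb in the control), since whole genes are left out. No paired analysis was possible because the table analysed holds group means only, and for the same reason no replicate could be left out in turn.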

Other observations

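Of 15 histone pseudogenes with a row, 7 had a mean count of at least 10 and 5 were listed at 0 in all groups. H2AC5P, at 6p22, had a level like that of active histone genes, at 2576 normalized counts per kb in the control, 2538 in clone 1 and 2609.9 in clone 2. H2BC20P and H2BC19P, at 1q21, had 62.0, 32.8 and 32.8 per kb and 62.2, 48.7 and 35.7 per kb, so both were below the control in both clones, as the 5 compared 1q21 histone genes were. H2AC10P had log2 ratios of -0.36 and -0.58, and H2AC9P had 369, 213 and 379 per kb. MACROH2A2, a macroH2A variant under the count minimum, was listed at 0 in the control and had 0.87 normalized counts in clone 1 and 10.5 in clone 2. These genes were chosen after their values were seen.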
